A study of Mus musculus with 8 samples.

Results

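The interferon regulatory factor (IRF) genes were compared between newly generated and serially transplanted MLL-AF9 leukemia. The 10 genes examined were Irf1, Irf2, Irf3, Irf4, Irf5, Irf7, Irf8, Irf9, Irf2bp1 and Irf2bp2, which were taken by name from the 12823 rows of a table of RNA sequencing reads per gene. All 10 had a row, and all 10 passed the filter on low counts that left 12494 genes for testing. In aggressive AML, 7 of them had fallen (Irf4, Irf7, Irf9, Irf5, Irf2bp1, Irf8 and Irf1) and 0 had risen. The shares over all tested genes were 10.2% fallen and 8.15% risen. The steepest well-measured decrease was in Irf7, whose mean in aggressive AML was 27.7% of that in new AML. Irf4 rested on only 0 to 35 counts a library. The decreases of Irf1 and Irf2bp1 passed the test in 5 and 4 of 8 fits that each left out 1 library.

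IRF proteins are transcription factors that share a DNA-binding domain reading repeats of the bases GAAA. IRF3, IRF5 and IRF7 are switched on by kinases downstream of sensors of foreign nucleic acid and drive interferon genes, IRF9 is the DNA-binding subunit of the complex ISGF3, which carries the type I interferon signal to the promoters of interferon-stimulated genes, and IRF1 and IRF2 act on overlapping sites as activator and antagonist. IRF8 and IRF4 have little affinity for DNA alone and bind with partners such as PU.1, and IRF8 is known for directing myeloid progenitors toward monocytes and dendritic cells. IRF2BP1 and IRF2BP2 carry no such DNA-binding domain and were found as corepressors that bind IRF2.

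Leukemia was produced by introducing MLL-AF9, a fusion of the genes KMT2A (MLL) and MLLT3 (AF9), with a GFP marker from a retrovirus into bone marrow progenitors of C57BL/6 mice, so that both groups carry the fusion and express it from the viral promoter. The 4 new AML libraries were made from GFP-positive bone marrow cells of newly generated leukemia, grown in sublethally irradiated recipients, and the 4 aggressive AML libraries from GFP-positive bone marrow cells that had gone through 5 serial transplantations into mice that were not irradiated. The samples are labelled biological replicates and the study describes male mice, 4 to a group, but neither source says how many founding leukemias they came from, so that p-values measure the spread between these samples. The comparison asked how leukemia cells passed through mice with an intact immune system differ from newly generated ones. Irradiation of the recipients also differs between the groups and cannot be told apart from the serial transplantations.

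Total counts ranged from 7805544 to 9697777 per library. All 12 genes listed as marks of MLL-AF9 progenitors passed the filter, and their summed level, to which Mpo, Ctsg and Prtn3 gave the most, was 8419 to 8973 CPM in new AML and 8219 to 10720 CPM in aggressive AML. By the edgeR test used for all genes, 2 of the 12 fell (Hoxa10 and Itgam) and 4 rose (Meis1, Elane, Ctsg and Kit). Among all tested genes, 10.2% fell and 8.15% rose. CPM is the count of a gene relative to the total of its library, here after TMM scaling, a trimmed-mean correction for differences in library composition, and 1 count was worth 0.103 to 0.128 CPM before that scaling. Summed counts of 4 Y-linked genes were 2315 to 2574 in the new AML libraries and 0 in each aggressive AML library. The study describes male mice for both groups, without giving the sex of the marrow donors, and the aggressive cells as passaged from newly generated leukemia. Whether the sampled groups share founding cells was not tested, and this difference between them cannot be told apart from the transplantations. The library that stood most apart was aggressive AML replicate 3, with a mean log2 distance of 1.52 to its own group where the other 7 libraries had 1.28 to 1.40. This distance was a root mean square over only the most different genes of each pair of libraries, and does not describe all genes. Without aggressive AML replicate 3 the estimates of Irf9, Irf7, Irf5, Irf4 and Irf8, given on the log2 scale, were -0.98, -1.81, -0.65, -2.06 and -0.45, all still called lower, and those of the other members stand with each gene.

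The proximal promoters of 4 of the genes are shown, 3 because letters of known STAT and IRF sites occur in them and Irf7 for its marked decrease. Each is 300 bases, 250 before to 50 after the transcription start given by RefSeq on GRCm38.p6, written 5′ to 3′ on the strand of the gene, and capitals mark matches to the motifs described next. Irf8 is at chr8:120736108-120736407 (plus strand), Irf1 at chr11:53769764-53770063 (plus), Irf2 at chr8:46739495-46739794 (plus) and Irf7 at chr7:141266375-141266674 (minus).
Irf8: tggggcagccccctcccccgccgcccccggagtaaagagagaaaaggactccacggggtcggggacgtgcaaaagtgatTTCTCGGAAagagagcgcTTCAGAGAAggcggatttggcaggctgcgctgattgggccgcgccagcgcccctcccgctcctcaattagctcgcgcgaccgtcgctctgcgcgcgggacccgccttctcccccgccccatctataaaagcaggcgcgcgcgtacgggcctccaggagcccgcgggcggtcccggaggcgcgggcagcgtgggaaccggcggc
Irf1: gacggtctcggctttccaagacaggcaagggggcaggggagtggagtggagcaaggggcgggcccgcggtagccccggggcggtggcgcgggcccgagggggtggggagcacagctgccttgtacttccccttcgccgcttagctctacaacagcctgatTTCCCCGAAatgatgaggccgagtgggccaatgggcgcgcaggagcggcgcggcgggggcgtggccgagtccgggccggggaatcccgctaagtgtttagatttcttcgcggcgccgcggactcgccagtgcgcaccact
Irf2: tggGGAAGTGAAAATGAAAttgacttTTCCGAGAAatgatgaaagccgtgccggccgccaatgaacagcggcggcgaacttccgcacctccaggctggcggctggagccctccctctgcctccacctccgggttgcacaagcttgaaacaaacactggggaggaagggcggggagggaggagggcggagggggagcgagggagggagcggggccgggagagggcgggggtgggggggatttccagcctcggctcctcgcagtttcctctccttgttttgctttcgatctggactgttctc
Irf7: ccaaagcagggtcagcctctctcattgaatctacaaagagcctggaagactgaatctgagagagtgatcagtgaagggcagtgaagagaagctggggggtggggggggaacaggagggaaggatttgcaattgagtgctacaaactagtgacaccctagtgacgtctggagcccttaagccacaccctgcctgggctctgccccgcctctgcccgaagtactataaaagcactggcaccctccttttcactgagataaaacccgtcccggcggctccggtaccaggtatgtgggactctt

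Both strands were searched for 3 motifs. The core of the GAS element, through which interferon gamma acts on genes, was taken as TTCNNNGAA and matches both strands at once. The core of the ISRE element, which ISGF3 and other IRF proteins bind, was taken as GAAA, any 2 bases and GAAA, and the composite of an ETS and an IRF site as GGAA, any 2 bases and GAAA. A GAS core was found in the windows of 4 members. Irf8 held 2, at 171 and 153 bases before the start, Irf1 held 1 at 90 bases before it (TTCCCCGAA), Irf2bp1 held 1 at 59 bases before it, and Irf2 held 1 at 224 bases before it. Of 32851 promoter windows of the same length, 8.30% held such a core. The ISRE core (3.44% of all windows) and the composite (2.72%) were each found in 1 member, Irf2, where bases 10 to 13 of the window belong to both. The windows of Irf3, Irf4, Irf5, Irf7, Irf9 and Irf2bp2 held no match, which says only that these letters are not in these 300 bases. These are matches of letters and not measured binding. Some members have more than 1 annotated start, and 13 windows were searched in all for the 10 members.

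The groups were compared by the quasi-likelihood test of edgeR on the counts, adjusted over all 12494 tested genes, and a gene was called at an adjusted p under 0.05. Among all tested genes, 10.2% were called lower and 8.15% called higher in aggressive AML, against 7 and 0 of the 10 family genes. In the same 7 genes, all 4 aggressive AML libraries lay below all 4 new AML libraries, which was the case for 12.0% of all tested genes. The median log2 fold change of the 10 genes was -0.56, against 0.00 over all tested genes, and each of the 10 estimates was below 0. The estimates of Irf2, Irf3 and Irf2bp2 did not pass the test. The 10 genes were measured in the same libraries, and their counts are not independent of each other.

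**Figure D1:**
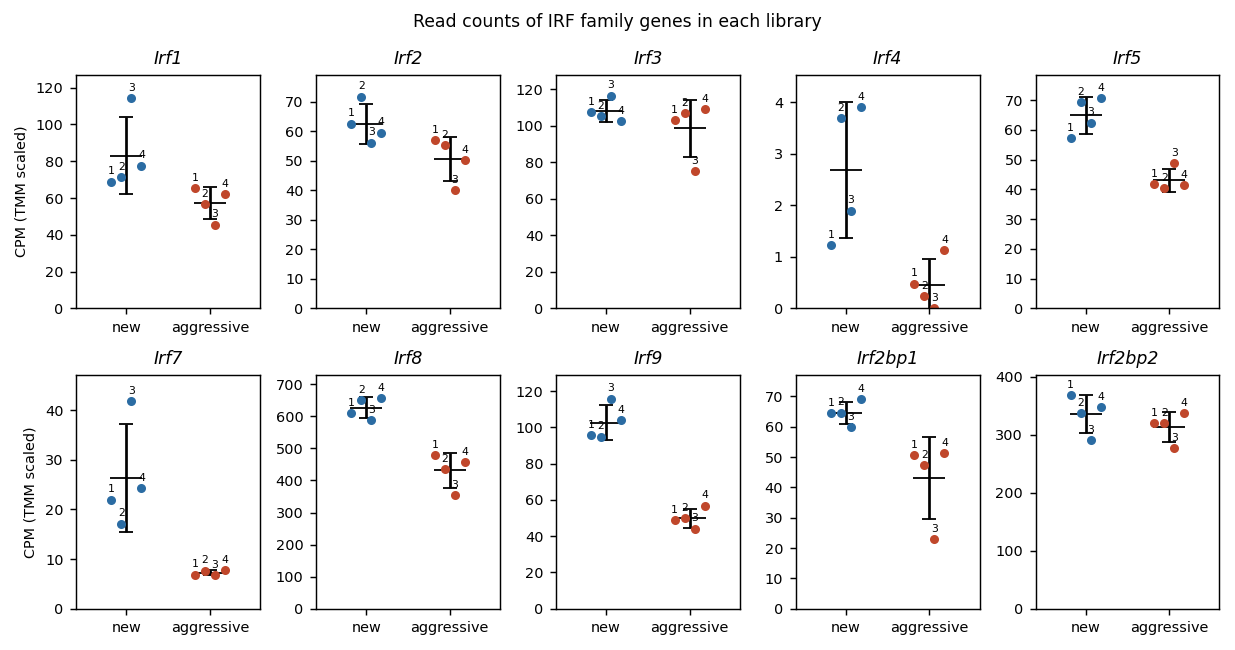
TMM-scaled CPM of each IRF family gene (vertical axes, from 0) in the 4 new AML and 4 aggressive AML libraries; points are libraries numbered by replicate, and bars give the mean ± SD (n = 4). The groups are apart in Irf1, Irf4, Irf5, Irf7, Irf8, Irf9 and Irf2bp1 and overlap in Irf2, Irf3 and Irf2bp2.

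Irf9 (ENSMUSG00000002325.15, chromosome 14, 55603571 to 55610030, plus strand), the DNA-binding subunit of ISGF3, had the clearest change. Its level in new AML replicates 1 to 4 was 95.6, 94.9, 115.8 and 103.9 CPM, and in aggressive AML replicates 1 to 4 it was 49.0, 49.8, 44.2 and 56.8 CPM. Every aggressive library was well below the lowest new AML library, and the spread within each group was small beside the gap. The mean fell from 102.5 ± 9.74 to 49.97 ± 5.19 CPM (SD, n = 4), which on the log2 scale is a change of -1.04 (SE 0.10, 95% interval -1.24 to -0.83, adjusted p = 4.53e-06). Irf9 overlaps the ubiquitin ligase gene Rnf31 on the same strand, and Rnf31 itself fell from 50.2 ± 4.01 to 36.0 ± 7.73 CPM, a log2 fold change of -0.48 (adjusted p = 0.0248), so that reads of the shared stretch cannot be assigned to either gene with certainty.

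Irf7 (ENSMUSG00000025498.15, chromosome 7, 141262706 to 141266481, minus strand) encodes the factor that amplifies interferon production and is itself interferon-inducible. The new AML libraries held 21.97, 17.1, 41.8 and 24.3 CPM, and the aggressive libraries 6.87, 7.66, 6.74 and 7.85 CPM. The aggressive libraries lay close together, whereas the new AML libraries spread widely, with replicate 3 far above the others. The decrease from 26.3 ± 10.8 to 7.28 ± 0.558 CPM (SD, n = 4) had an estimate of -1.85 on the log2 scale (SE 0.23, 95% interval -2.35 to -1.35, adjusted p = 7.08e-05), and without both replicates numbered 3 it was -1.50. Phrf1, which overlaps Irf7 on the other strand, had 135.9 CPM in new AML and 123.9 CPM in aggressive AML and was not called (adjusted p = 0.310).

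Irf3 (ENSMUSG00000003184.15, chromosome 7, 44997648 to 45002848, plus strand), the constitutive partner of Irf7 that starts the first wave of interferon, did not pass the test. Its levels were 107.5, 105.4, 116.5 and 102.5 CPM in new AML and 103.3, 106.9, 75.0 and 108.9 CPM in aggressive AML. All aggressive libraries but replicate 3 lay within the range of the new AML libraries. The log2 fold change was -0.13 (95% interval -0.36 to 0.10, adjusted p = 0.420), and it was -0.019 without aggressive AML replicate 3 and 0.020 without both replicates numbered 3. Irf3 overlaps Bcl2l12 on the other strand, which was not called either.

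Irf5 (ENSMUSG00000029771.12, chromosome 6, 29526625 to 29541871, plus strand), which acts behind Toll-like receptors in myeloid cells, had 57.4, 69.4, 62.5 and 70.7 CPM in new AML and 41.9, 40.4, 48.9 and 41.4 CPM in aggressive AML. The groups did not overlap, and here aggressive AML replicate 3 was the highest of its group and not the lowest. Irf5 fell from 65.0 ± 6.23 to 43.2 ± 3.85 CPM (SD, n = 4), with a fold change of -0.59 on the log2 scale (SE 0.10, adjusted p = 0.000831). Tnpo3, which overlaps it on the other strand, was at 142.2 and 144.4 CPM (adjusted p = 0.862).

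**Figure D2:**
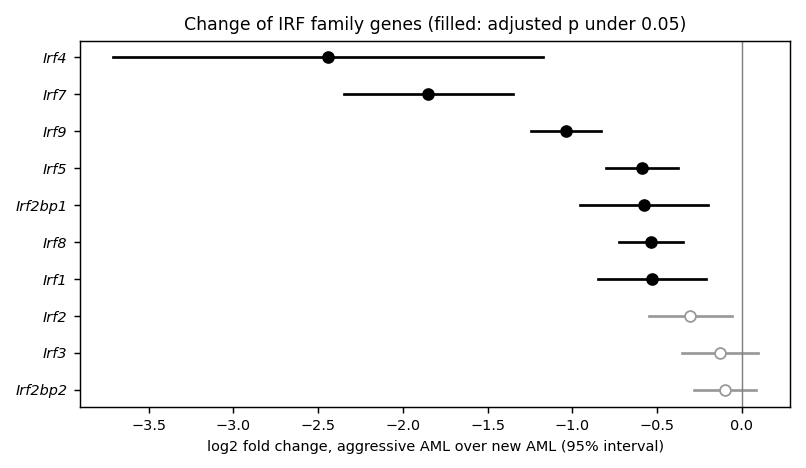
Log2 fold change of each IRF family gene, aggressive AML over new AML (horizontal axis), with its 95% interval from edgeR; filled points passed an adjusted p of 0.05. The 7 filled genes run from Irf4 at -2.44 to Irf1 at -0.53, and the intervals of Irf3 and Irf2bp2 include 0.

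Irf8 (ENSMUSG00000041515.10, chromosome 8, 120736358 to 120756694, plus strand), the monocyte and dendritic cell factor, was per kilobase the most abundant of the 8 genes with the IRF DNA-binding domain, in both groups. The new AML libraries held 610.9, 651.3, 587.5 and 656.9 CPM, and the aggressive libraries 480.1, 436.4, 355.3 and 455.8 CPM. The highest aggressive library remained well below the lowest new AML library. The mean fell from 626.6 ± 33.2 to 431.9 ± 54.1 CPM (SD, n = 4), with an estimate of -0.54 on the log2 scale (SE 0.09, 95% interval -0.72 to -0.35, adjusted p = 0.000657).

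Irf4 (ENSMUSG00000021356.10, chromosome 13, 30749226 to 30766976, plus strand), the closest relative of Irf8 and best known from lymphocytes, was near the limit of detection. Its raw counts were 12, 31, 17 and 35 in new AML and 4, 2, 0 and 10 in aggressive AML, or 1.23, 3.69, 1.90 and 3.90 CPM against 0.482, 0.236, 0 and 1.14 CPM. A count of 0 allows up to 3 counts, and the lowest new AML library was only just above the highest aggressive library. The fitted log2 fold change of -2.44 (SE 0.60, 95% interval -3.71 to -1.18, adjusted p = 0.0103) has the widest interval of the family, and its size depends on how low counts are handled, with -1.31 in a limma fit of log2(CPM + 1).

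Irf1 (ENSMUSG00000018899.16, chromosome 11, 53770014 to 53778374, plus strand), an interferon-inducible activator of antigen presentation genes, had 68.9, 71.5, 114.2 and 77.6 CPM in new AML and 65.3, 56.8, 45.5 and 61.9 CPM in aggressive AML. The groups did not overlap, but new AML replicate 3 was far above the other new AML libraries, and the lowest new AML library was close to the highest aggressive library. Irf1 fell from 83.0 ± 21.1 to 57.4 ± 8.66 CPM (SD, n = 4), with an estimate of -0.53 on the log2 scale (SE 0.15, adjusted p = 0.0229). The call was lost without new AML replicate 3 (-0.34, adjusted p = 0.0565), without replicate 2 of aggressive AML (-0.53, adjusted p = 0.0523) and without replicate 3 of that group (-0.43, adjusted p = 0.0529). Without both replicates numbered 3 the estimate was -0.24 (adjusted p = 0.0701).

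Irf2 (ENSMUSG00000031627.9, chromosome 8, 46739732 to 46847458, plus strand), the antagonist that shares sites with Irf1, did not pass the test. It had 62.5, 71.7, 56.1 and 59.5 CPM in new AML and 56.9, 55.1, 40.1 and 50.1 CPM in aggressive AML. The highest aggressive library was above the lowest new AML library, an overlap of less than 1 CPM. The log2 fold change was -0.30 (95% interval -0.55 to -0.06) with an adjusted p = 0.0796, and -0.21 without aggressive AML replicate 3.

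Of the genes for corepressors that bind IRF2, Irf2bp1 (ENSMUSG00000044030.4, chromosome 7, 19004044 to 19006777, plus strand) had 64.5, 64.7, 60.02 and 69.1 CPM in new AML and 50.7, 47.4, 23.1 and 51.4 CPM in aggressive AML. The groups did not overlap, and aggressive AML replicate 3 was far below all other libraries. Irf2bp1 fell from 64.6 ± 3.72 to 43.2 ± 13.5 CPM (SD, n = 4), with an estimate of -0.58 on the log2 scale (SE 0.18, adjusted p = 0.0347). Without aggressive AML replicate 3 the estimate was -0.37 (adjusted p = 0.00808), a smaller and more precise difference. The estimate was about as large, but no longer called, without new AML replicate 1, 2 or 4 (-0.58, -0.58 and -0.54, adjusted p = 0.0708, 0.0757 and 0.0876) and without aggressive AML replicate 2 (-0.62, adjusted p = 0.0504). It was still called without new AML replicate 3 (adjusted p = 0.0431) and without aggressive AML replicate 1 or 4 (adjusted p = 0.0361 and 0.0257). Why the call was lost in some of these fits was not tested.

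Irf2bp2 (ENSMUSG00000051495.7, chromosome 8, 126588296 to 126593986, minus strand) had 368.1, 337.6, 290.7 and 348.0 CPM in new AML and 320.0, 320.5, 276.9 and 336.9 CPM in aggressive AML. The ranges of the groups lay largely over each other. The log2 fold change was -0.10 (95% interval -0.28 to 0.08, adjusted p = 0.445). That interval does not reach the estimate of any of the 7 genes that fell, but it overlaps the intervals of Irf1 (-0.85 to -0.21) and Irf2bp1 (-0.96 to -0.20). The estimate was -0.043 without aggressive AML replicate 3, -0.053 without new AML replicate 1 and -0.16 without new AML replicate 3, and it passed the test in none of these.

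In new AML the members did not vary alike, and replicate 3 was the highest library for 4 of the 10 genes (Irf1, Irf3, Irf7 and Irf9), and for 4 others (Irf2, Irf8, Irf2bp1 and Irf2bp2) it was the lowest. In aggressive AML, replicate 3 was the lowest library for 9 of the 10 genes, all except Irf5.

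**Figure D3:**
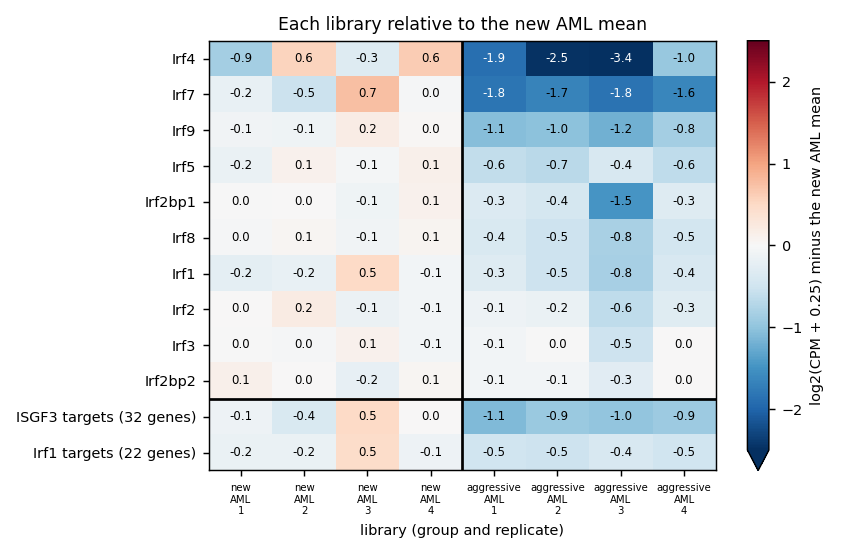
Colour and number give log2(CPM + 0.25) of each IRF family gene in each library minus the mean of the 4 new AML libraries, with the mean over 32 ISGF3 target genes and 22 Irf1 target genes below the line; colours end at -2.5. New AML replicate 3 stands above the other new AML libraries in Irf7, Irf1 and both target lists, and aggressive AML replicate 3 stands below its group in Irf2bp1.

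To ask whether related members changed unequally, the log2 ratio of their levels, each with 0.25 CPM added, was compared between the groups with an exact permutation test (two-sided, 70 divisions of the 8 libraries, adjusted over 5 pairs). The ratio of Irf7 to Irf3 was 0.206, 0.165, 0.361 and 0.239 in new AML and 0.0688, 0.0738, 0.0928 and 0.0742 in aggressive AML, so that every aggressive library held less Irf7 for its Irf3 than every new AML library (difference in log2 ratio -1.60, exact p = 0.0286, adjusted p = 0.0476). The value 0.0286 is the smallest that this design allows. The ratio of Irf8 to Irf9 was 6.38, 6.85, 5.06 and 6.31 in new AML and 9.74, 8.72, 8.0 and 8.0 in aggressive AML, a difference of 0.49 in log2 ratio with the same exact p = 0.0286 and adjusted p = 0.0476, so that Irf8 decreased less than Irf9.

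The ratio of Irf2bp2 to Irf2bp1 was 5.69, 5.20, 4.83 and 5.02 in new AML and 6.28, 6.74, 11.9 and 6.52 in aggressive AML, again without overlap (difference 0.55, exact p = 0.0286, adjusted p = 0.0476). The ratio of aggressive AML replicate 3 stands apart, and without it the difference was 0.33. The ratio of Irf8 to Irf4 overlapped between the groups (difference 1.64, exact p = 0.0571, adjusted p = 0.0714), and the difference was 0.77 with 1 CPM added in place of 0.25. For Irf1 over Irf2 the ratio in new AML replicate 3 was 2.03 and in the other 7 libraries it was between 0.997 and 1.30. The groups did not differ detectably in it (difference -0.20, exact p = 0.571), and without new AML replicate 3 the difference was 0.010.

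**Figure D4:**
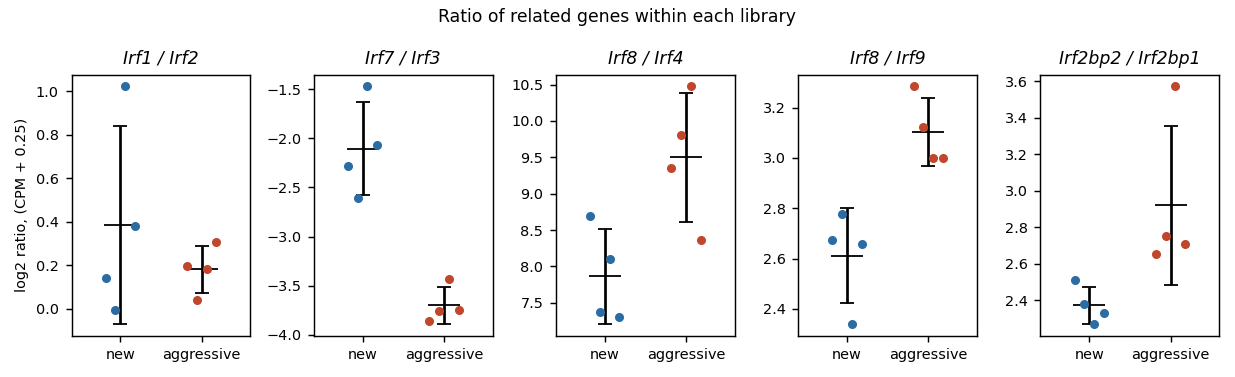
Log2 ratio of the levels of 5 pairs of IRF family genes, each level with 0.25 CPM added (vertical axes), in the 4 libraries of each group; bars give the mean ± SD (n = 4). The groups are apart for Irf7 over Irf3, Irf8 over Irf9 and Irf2bp2 over Irf2bp1 and overlap for the other pairs.

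Levels of different genes were compared as CPM per kilobase of merged exons. In new AML, Irf8 was highest at 88.8 ± 4.70 (SD, n = 4), followed by Irf2bp2 at 66.2 ± 6.46, Irf3 at 31.4 ± 1.76, Irf2bp1 at 23.6 ± 1.36, Irf5 at 22.4 ± 2.14, Irf1 at 20.9 ± 5.31, Irf9 at 19.0 ± 1.81, Irf2 at 8.45 ± 0.905, Irf7 at 6.97 ± 2.85 and Irf4 at 0.546 ± 0.269. The libraries overlapped between the neighbours Irf2bp1 and Irf5, Irf5 and Irf1, Irf1 and Irf9, and Irf2 and Irf7, whose order is therefore not settled. In aggressive AML the order ran from Irf2bp2 (61.7 ± 5.06) and Irf8 (61.2 ± 7.67), which overlapped, through Irf3 (28.6 ± 4.6) to Irf7 (1.93 ± 0.148) and Irf4 (0.0946 ± 0.100). Irf9 and Irf1, whose libraries overlapped in new AML, were apart in aggressive AML, at 9.28 ± 0.963 and 14.4 ± 2.18. The values rest on the gene model, and per kilobase of the longest transcript Irf8 was first in both groups, at 180.6 ± 9.56 and 124.5 ± 15.6, and in aggressive AML it no longer overlapped Irf2bp2. By that measure Irf1 moved up to rank 4 in both groups, and Irf2bp1 moved from rank 4 to rank 7 in new AML, below Irf9, and to rank 6 in aggressive AML.

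For each of the 7 genes that fell, the 3 tested genes of at least 10 CPM with the most similar profile over the 8 libraries were found by the smallest root mean square difference of centred log2(CPM + 0.25). For Irf7 these were Oas3 (difference 0.122), Lgals3bp (0.171) and Oasl2 (0.206). Oas3 and Oasl2 are interferon-induced genes of the oligoadenylate synthetase family, and Oas3 went from 58.5 to 16.4 CPM. For Irf9 they were E330020D12Rik (0.0806), Trim30a (0.103) and Gm8995 (0.111), and for Irf1 Parp9 (0.128), H2-T24 (0.133) and Chordc1 (0.146). For Irf8 they were Gpr137 (0.0573) and Cyth4 (0.0603) among others, for Irf5 Cfp (0.0681), Rasa3 (0.0737) and Pex26 (0.0858), and for Irf2bp1 Pla2g15 (0.0766), Rubcn (0.0941) and Tifab (0.0963). The nearest genes to Irf4, BC147527, Epha7 and Clec2d, lay at 0.561 to 0.594, a much looser match. These profiles include the difference between the groups, and with profiles scaled to the same spread none of the 3 genes was retained for Irf1, Irf4, Irf5, Irf8 and Irf2bp1, 1 for Irf7 and 2 for Irf9.

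The genes around the family were described from 6 lists written from general knowledge, with earlier results of these data known. The counts of each list stand beside 10.2% called lower and 8.15% called higher among all tested genes. Of 23 tested sensors, adaptors and kinases that act upstream of IRF3, IRF5 and IRF7, 10 fell and 1 rose, with a median log2 fold change of -0.28. The gene that rose was the ubiquitin ligase gene Traf6 (0.34, adjusted p = 0.0483), whose call was lost without new AML replicate 2, 3 or 4 or aggressive AML replicate 1 or 3. At 10 CPM or more, the largest called changes were those of the nucleic acid sensors Zbp1 (-2.27, from 14.1 ± 12.3 to 2.91 ± 0.355 CPM, adjusted p = 0.00247) and Ddx58, which encodes RIG-I (-1.07, from 13.9 ± 5.51 to 6.62 ± 0.766 CPM, adjusted p = 0.00723), and the adaptor gene Ticam2 (-1.32, adjusted p = 5.05e-05). The kinases that phosphorylate IRF3 and IRF7 did not pass the test, with Tbk1 at 97.4 ± 6.94 and 96.5 ± 8.85 CPM (log2 fold change -0.01, 95% interval -0.20 to 0.17, adjusted p = 0.936) and Ikbke at 44.7 ± 4.47 and 47.6 ± 8.56 CPM (adjusted p = 0.659). Myd88, the adaptor of Toll-like receptors that leads to IRF5 and IRF7, was at 56.5 and 49.9 CPM (adjusted p = 0.208).

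Of 14 interferon receptor, JAK and STAT genes, 9 fell and 1, Ifngr1, rose (median -0.36). Stat2, which encodes a partner of IRF9 in ISGF3, fell from 66.1 ± 5.49 to 46.0 ± 6.91 CPM (log2 fold change -0.52, adjusted p = 0.00421). Of the chains of the interferon gamma receptor, Ifngr2 fell (-0.65, adjusted p = 0.000154) and Ifngr1 rose (0.38, adjusted p = 0.0204), the latter not called without new AML replicate 1.

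Of 32 tested targets of ISGF3, 25 fell and 0 rose, with a median log2 fold change of -0.86. Oas2 (-2.52, adjusted p = 1.39e-05), the deconjugase gene Usp18 (-2.32, adjusted p = 0.000208) and Ifitm3 (-2.23, adjusted p = 1.15e-05), which restricts the entry of viruses, had the largest changes at 10 CPM or more. The mean log2(CPM + 0.25) of the list was 4.59, 4.35, 5.22 and 4.73 in new AML and 3.63, 3.79, 3.74 and 3.82 in aggressive AML. Its highest library, new AML replicate 3, was also the highest for Irf7, Irf9 and Irf1. Without both replicates numbered 3, 20 of the 32 were called lower.

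Of 22 tested Irf1 target genes of the immunoproteasome, class I antigen loading and the guanylate-binding protein family, 8 fell and 0 rose, with a median of -0.28. Among called genes at 10 CPM or more, Gbp5 (-2.96, from 11.2 ± 10.5 to 1.42 ± 0.911 CPM, adjusted p = 0.00209), Gbp2 (-2.24, from 15.5 ± 21.5 to 3.26 ± 1.44 CPM, adjusted p = 0.0404) and Gbp7 (-1.06, from 31.7 ± 19.2 to 15.3 ± 3.94 CPM, adjusted p = 0.0229) had the largest changes. The libraries of the groups overlapped in Gbp2 and Gbp7, and the SD of Gbp2 in new AML was larger than its mean. The immunoproteasome genes Psmb8, Psmb9 and Psmb10 did not pass the test. The number called lower was 4 when replicate 2 of aggressive AML was left out and 5 when replicate 4 of that group was.

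Of 21 tested partners of IRF8 and IRF4 and myeloid genes linked to IRF8, 12 fell and 1 rose (median -0.43). Spi1, which encodes the partner PU.1, fell from 260.2 ± 5.46 to 218.6 ± 9.55 CPM, a log2 fold change of -0.25 (adjusted p = 0.0159). Csf1r, the receptor of the macrophage growth factor M-CSF, fell from 166.2 ± 28.4 to 51.2 ± 6.42 CPM (-1.70, adjusted p = 3.76e-07). The monocyte factor gene Klf4 also fell (-2.27, adjusted p = 0.000304). Cd74, the invariant chain, fell to a low level (-3.38, from 11.8 ± 4.18 to 1.13 ± 0.886 CPM, adjusted p = 5.18e-05). Cebpe, a granulocyte factor gene, was the gene that rose (1.10, from 28.5 ± 7.94 to 61.0 ± 17.6 CPM, adjusted p = 0.00233), although the libraries of the groups overlapped.

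Of 19 tested genes listed as limiting or degrading IRF proteins, 2 fell and 2 rose, with a median of -0.17, shares near those of all tested genes (10.2% lower and 8.15% higher). Usp18, which is also counted among the ISGF3 targets, and Cul1 fell. Atf4 (0.62, adjusted p = 0.00586), reported to bind IRF7, and Eif4ebp1 (0.55, adjusted p = 0.00129), a brake on translation of the Irf7 message, rose. Irf2bpl, the relative of Irf2bp1 and Irf2bp2, went from 21.6 to 17.3 CPM and was not called (adjusted p = 0.141).

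**Figure D5:**
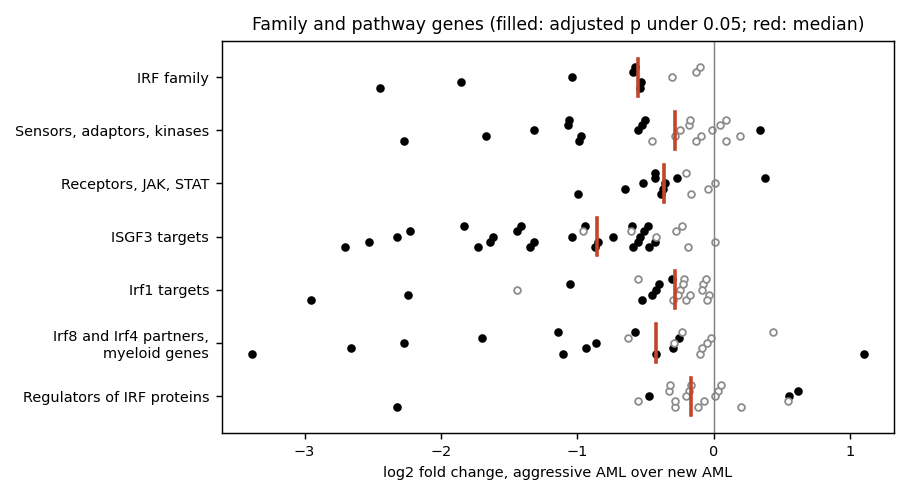
Log2 fold change, aggressive AML over new AML (horizontal axis), of the IRF family and of each tested gene of 6 pathway lists; filled points passed an adjusted p of 0.05 and red bars are medians. The median is -0.56 for the family, -0.86 for ISGF3 targets and between -0.43 and -0.17 for the other lists.

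Markers of other cell types were followed because IRF genes are expressed in many blood cells, and in bulk RNA fewer cells of a type and less RNA per cell cannot be told apart. Among all tested genes, 10.2% were called lower and 8.15% called higher. Most cell types had few tested markers, so that their counts say little beside these shares. Of 12 tested neutrophil markers, 9 fell and 0 rose (median -1.20). Their summed level was 440.4 to 615.9 CPM in new AML and 229.8 to 294.3 CPM in aggressive AML. Among those that fell, Mmp9 and Retnlg ended under the 1 CPM of the filter, at 0.585 ± 0.419 and 0.554 ± 0.342 CPM in aggressive AML. Of 4 tested macrophage markers 1 fell (Adgre1), with a sum of 81.7 to 144.3 against 55.5 to 90.3 CPM, while C1qa, C1qb, C1qc, Siglec1, Marco and Cd5l did not reach the filter. Of 7 tested erythroid markers 2 fell (Hba-a1 and Slc4a1), with a sum of 26.9 to 99.8 against 10.02 to 53.0 CPM.

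Dendritic and B cells are known for high levels of Irf8, Irf7 or Irf4. Of 6 plasmacytoid dendritic cell markers 2 fell (Siglech and Spib) and 1 rose (Runx2). Their sum was 572.5 to 650.4 CPM in new AML and 651.2 to 833.3 CPM in aggressive AML, most of it from Tcf4. Siglech went from 5.59 ± 2.17 to 0.449 ± 0.408 CPM and Spib from 2.16 ± 0.876 to 0.330 ± 0.110 CPM. Both passed the filter of 1 CPM mainly through new AML, so that a call other than lower was unlikely. Of 5 conventional dendritic cell markers 1 fell (Itgax, from 40.2 ± 8.10 to 10.7 ± 1.71 CPM), while Xcr1, Clec9a and Zbtb46 did not reach the filter. Their sum was 523.2 to 737.0 CPM in new AML and 639.1 to 830.1 CPM in aggressive AML, most of it from Flt3. Flt3 is also listed as a mark of MLL-AF9 progenitors, so that this sum does not measure dendritic cells alone. Of 9 B cell markers only Cd79b and Cd22 were tested. Their sum was 39.1 to 42.2 CPM in new AML and 29.8 to 33.1 CPM in aggressive AML, most of it from Cd79b, which was not called. Cd22 fell from 3.81 ± 0.505 to 0.117 ± 0.135 CPM. Since Cd22 passed the filter only through new AML, a call other than lower was unlikely for it. Cd79a, Ms4a1 and Pax5 did not reach the filter. Of 9 T cell markers 2 were tested and 1 rose (Bcl11b), with a sum of 7.804 to 9.55 against 6.35 to 21.4 CPM, and of 8 NK cell markers only Nkg7 was tested, which rose from 14.9 ± 5.01 to 24.1 ± 4.30 CPM. The part of these markers in the changes of the IRF genes was not tested.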

How the data were processed

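RNA of GFP-positive MLL-AF9 cells was sequenced in 4 new AML and 4 aggressive AML libraries, with groups and replicate numbers taken from the labels. The authors purified polyadenylated RNA, sequenced fragments from both ends, aligned reads to mm10 with HISAT2 and counted them per gene with Rsubread, leaving out genes under 1 CPM. The gene annotation and strand setting are not given in the sources used here, and 8 of the 10 members overlap another gene. Although the name of the deposited table refers to CPM, it holds integers whose totals differ between libraries, and these were used as raw read counts.

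A gene was tested if it reached 1 CPM in 4 or more libraries, by edgeR 4.0.16 in R 4.3.3 (quasi-likelihood test, TMM factors 0.986 to 1.01, group as the only term, Benjamini-Hochberg adjustment, threshold 0.05), which left out 329 rows. The common biological coefficient of variation was 0.118. The test used by the study, limma (here version 3.58.1), and DESeq2 1.42.0 were among the alternatives. Ratios were tested by exact permutation with scipy 1.17.1. The edgeR fit was tested on simulated data, drawn independently for each gene and library with the fitted spread of each gene. Such data hold no deviant library, no shared founding cells and no dependence between genes, and cannot speak to these limits. Gene spans and exon lengths came from GENCODE M21 (GRCm38, the build also called mm10), and promoters from RefSeq.

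The members and lists were chosen with earlier results of these data known. Named genes are all members, the 3 most similar genes of each called member, of each list the 3 called genes with the largest absolute fold change whose higher group mean was 10 CPM or more, and genes that act directly with members (Stat2, Tbk1, Ikbke, Ddx58, Myd88 and Spi1). Some genes that the rule selects are not reported here. Irf2bpl, Cebpe, Cul1, Traf6, Ifngr1, the Psmb genes, the overlapping genes and the individual cell type markers were named after their values were seen.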

Additional observations from a re-analysis of the deposited data

Results flagged for a closer look

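In each group of 4 libraries, the distance of the highest or lowest library from its nearest neighbour was compared with the whole range of the group for each of the 10 genes. Of 20 such groups, 2 held a library beyond Dixon's 95% critical value, where chance gives about 1 in 20 groups. Both were aggressive AML replicate 3. Irf3 was at 75.0 CPM in that library, with the other 3 aggressive libraries at 103.3, 106.9 and 108.9 CPM. Irf2bp1 was at 23.1 CPM in it, with the others at 50.7, 47.4 and 51.4 CPM.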

How the results depend on the processing

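Against 7 members called lower, the other tests, scalings and filters called 6 to 8 of the 10 lower, and 5 to 7 were called when 1 library was left out, the lowest without aggressive AML replicate 2. In all of these 0 were called higher. Irf5, Irf7, Irf8 and Irf9 were called lower under every alternative run, and Irf4 under every alternative that tested it, since it was not tested with a filter of 5 CPM. Libraries of the groups with the same replicate number had correlations of deviations of 0.06, -0.06, -0.10 and 0.29. Libraries with different numbers were not compared, so that these values cannot show whether the numbers pair the samples. A fit with the replicate block called 8 members lower, the added one being Irf2 (-0.31, adjusted p = 0.0394). Array weights also added Irf2 (adjusted p = 0.0370). Without both replicates numbered 3, an alternative chosen after seeing the data, 6 members were called and the estimate of Irf3 was 0.020, the opposite direction to its main value, which ranged from -0.18 to -0.019 with 1 library left out. The difference in the ratio of Irf1 to Irf2 ranged from -0.33 to 0.010 when 1 library was left out, with 0.010 without new AML replicate 3. The cause of these changes was not tested. With 3 libraries in a group the exact test cannot go below 0.0571. Over all tested genes the number called was 2296, with 1534 to 2381 when 1 library was left out, 3122 with array weights and 1968 with the stricter filter. The depth limits Irf4, whose estimate rests on 0 to 35 counts a library.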
